A study of Branchiostoma lanceolatum with 8 samples.

Results

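The genes described here encode the proteins that write, read, remove and carry marks on chromatin, together with histones and the machines that move nucleosomes. They were followed in explants of ectoderm of Branchiostoma lanceolatum, an amphioxus and thus a chordate without a backbone. A gene was included when the symbol paired with its identifier began with one of the family prefixes KDM, KMT, SETD, EHMT, SUV, EZH, EED, SUZ12, HDAC, SIRT, CBX, SMARC, CHD, ARID, DNMT, TET, BRD, ING, KAT, PHF, H3F3, H2AF or HIST. For CHD, TET, BRD, ING, KAT and PHF a digit had to follow the prefix, and EED had to be the whole symbol. That rule gave 119 of 18998 gene identifiers, of which 115 were in the table for 11 hours post fertilization (hpf) and 111 in that for 19 hpf, with 107 in both. The study compared explants kept without added ligand (control) with explants given human recombinant Activin at 50 ng/mL, a ligand of the TGF-beta family. Control and Activin explants were each collected at 11 and at 19 hpf, with 2 libraries in each of the 4 groups, and every library pooled explants of more than 1 fertilization. No genotype or transgene separates the groups.

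DNA in the nucleus is wound on histones, and chemical marks on histone tails or on the DNA itself help to set which genes can be read. Methyltransferases and acetyltransferases place such marks, demethylases and deacetylases take them off, and proteins with bromodomains, chromodomains or PHD fingers bind them. Remodelers of the SWI/SNF, ISWI and CHD families use ATP to slide, evict or space nucleosomes. In vertebrate embryos, Polycomb complexes hold developmental regulators silent until a lineage is chosen, and several of the genes below are needed for early development. Symbols here are human-style names, so each role named below is that of the vertebrate or insect counterpart and not one measured in amphioxus.

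Fold changes, standard errors and adjusted p-values at one time were read from the authors' deposited table of that time. Each value printed with ± is the log2 ratio of Activin over control with its standard error, while a change written as n-fold is the same ratio on the linear scale. Called genes had a Benjamini-Hochberg adjusted p under 0.05 over all rows of the table, from a two-sided Wald test. The numerator is not named in the headers. LEFTY2, CHRD and GSC, which respond to Nodal/Activin signalling in other chordates, had positive values at both times, LEFTY2 for example 6.39 ± 0.53 at 11 hpf and 6.92 ± 0.43 at 19 hpf, and positive was read as higher in Activin. Values of single libraries were not analysed here, so the level of each group was worked out from mean and fold change together, as a mean of normalized counts with equal weight for both groups. These rebuilt means are not divided by gene length and serve to compare groups within a gene. In bulk explants, fewer cells of a type and less RNA per cell cannot be told apart. Levels of the 2 times come from tables normalized separately and were set side by side with no test between times.

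As deposited, more chromatin genes were called higher than lower at both times, whereas over all genes lower calls were the more frequent. Both of these balances turn under other scalings, whose counts are given after these. At 11 hpf 32 of 115 were called higher and 13 lower, or 27.8% and 11.3%, while 1893 of 15793 genes tested (12%) were called higher and 24.6% lower. In all, 39.1% of the chromatin genes were called at 11 hpf, close to the 36.6% of all genes, with the calls split the other way between directions. At 19 hpf 49 of 111 were higher and 11 lower, or 44.1% and 9.91%, beside 18.7% and 27.7% of all genes. The share called in either direction was then 54.1% for chromatin genes and 46.4% for all genes. The median log2 fold change of the chromatin genes was 0.60 at 11 hpf and 0.93 at 19 hpf, when the median over all genes was 0.073 and 0.068. Chromatin genes were also measured better than most, with a median mean of 264 normalized counts at 11 hpf against 65.2 for all genes, and 267 against 97.3 at 19 hpf. The median standard error was 0.47 at 11 hpf for chromatin genes and 0.70 for all genes. The tables do not give the depth of single libraries, and errors shown cover the spread as the authors' model estimated it.

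**Figure D1:**
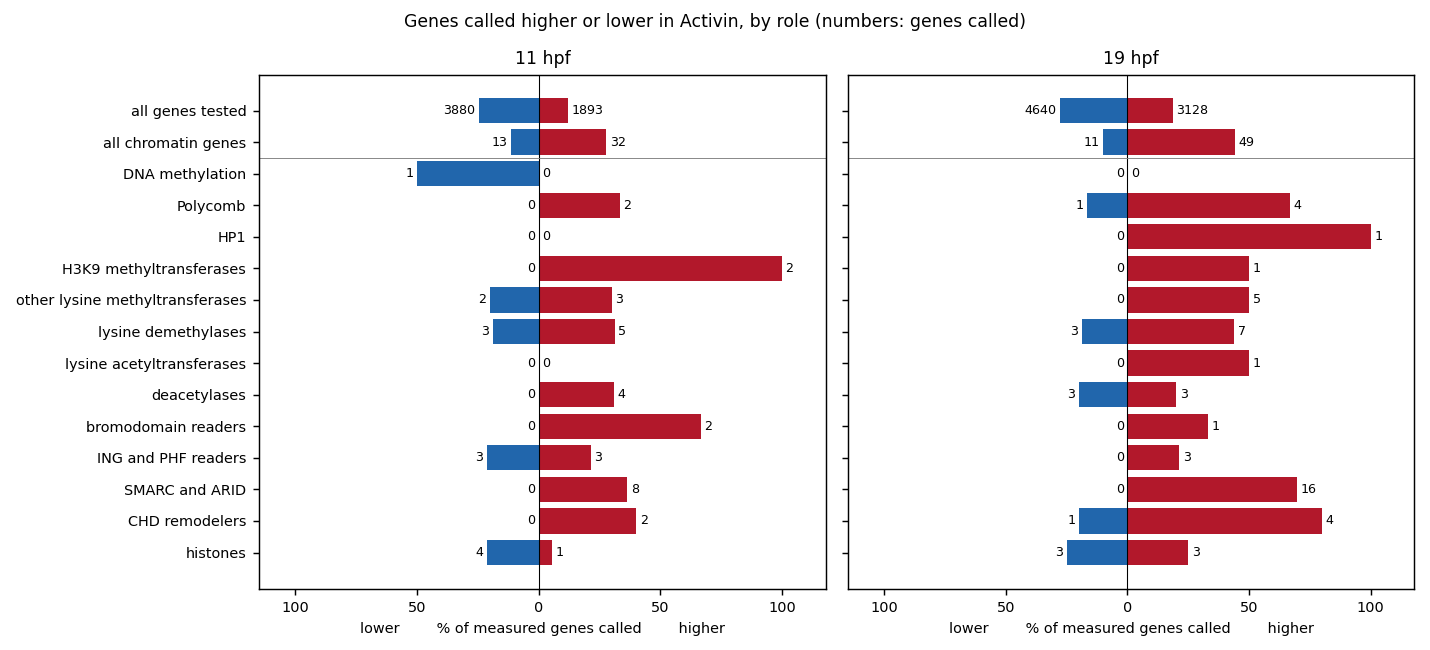
Share of measured genes called higher (red, to the right) or lower (blue, to the left) in Activin at 11 and 19 hpf, in percent, for all genes tested, all chromatin genes and each role; numbers beside bars count the genes called. Chromatin genes have 32 higher and 13 lower at 11 hpf and 49 and 11 at 19 hpf, while all genes have more lower than higher calls at both times as deposited, a balance that turns at both times under total-count scaling and at 19 hpf under upper-quartile scaling.

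How many single genes counted as higher depended on the scaling between groups. Ribosomal protein genes, 62 in each table, had a median log2 fold change of 0.37 at 11 hpf and 1.05 at 19 hpf. When these medians were subtracted, 24 of the 32 higher calls at 11 hpf remained but only 13 of the 49 at 19 hpf, while all 13 and all 11 lower calls remained. Scaling on the upper quartile or on the total of the rebuilt means moved every value up instead, by 0.44 and 0.98 at 11 hpf and by 0.54 and 0.86 at 19 hpf. All higher calls then remained at both times, and 5 of 13 lower calls at 11 hpf and 6 of 11 at 19 hpf remained in every one of the 3 scalings. Counted afresh, ribosomal centring called 24 chromatin genes higher and 18 lower at 11 hpf, and 13 higher and 31 lower at 19 hpf, so that lower calls led at the later time. Over all genes it called 1263 higher and 4657 lower at 11 hpf, and 1260 and 7255 at 19 hpf. Upper-quartile scaling called 3036 of all genes higher and 3244 lower at 11 hpf, but 4594 and 3731 at 19 hpf. Total-count scaling called 4820 higher and 2616 lower at 11 hpf, and 5653 and 3339 at 19 hpf, so that higher calls led in all genes too. The distance between the chromatin median and the median of all genes, 0.52 at 11 hpf and 0.86 at 19 hpf, is the same under any such shift. Below, a call is described as held in all scalings when it passed with the same sign under all 3.

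**Figure D2:**
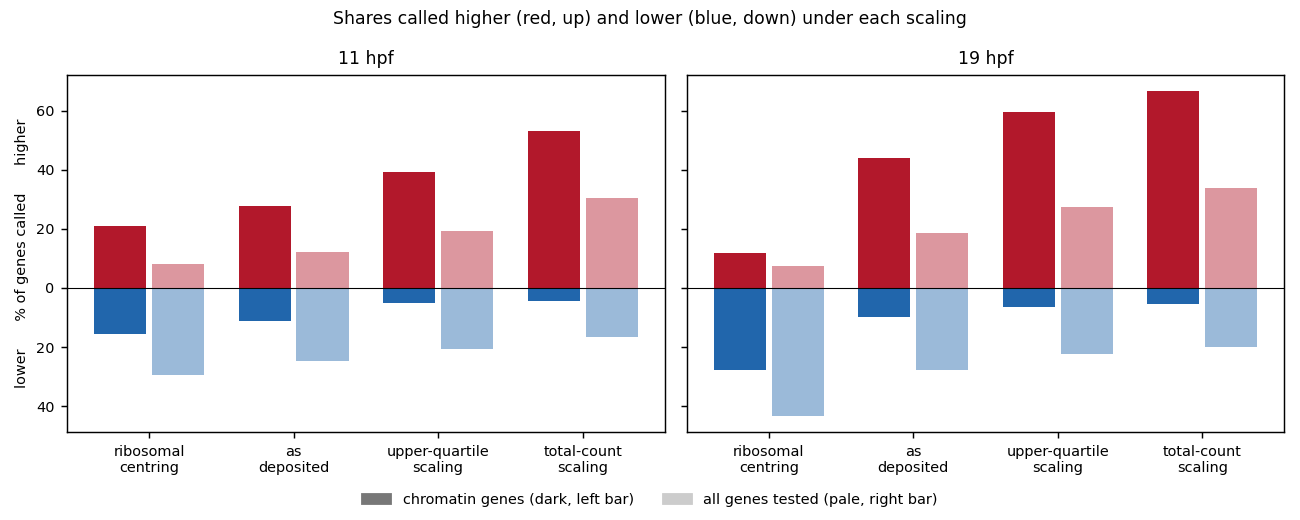
Percent of genes called higher (red, upward) and lower (blue, downward) at 11 and 19 hpf under ribosomal centring, as deposited, upper-quartile and total-count scaling; dark left bars are chromatin genes and pale right bars all genes tested. Chromatin genes called higher range from 20.9% to 53.0% at 11 hpf and from 11.7% to 66.7% at 19 hpf, and in each setting their share called higher is above that of all genes and their share called lower below it.

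Of the 3 core subunits of Polycomb repressive complex 2, which methylates histone H3 at lysine 27, 2 rose at 11 hpf and all 3 at 19 hpf. EZH2 (BL24216), the catalytic subunit, had rebuilt means of 67.1 in control and 336 in Activin at 11 hpf and 29.0 and 344 at 19 hpf. It was 5.004-fold higher at 11 hpf (2.32 ± 0.48, adjusted p = 9.9e-06) and 11.8-fold higher at 19 hpf (3.57 ± 0.53, adjusted p = 2.2e-10) in the authors' deposited table, held in all scalings at both times. SUZ12 (BL23838), a subunit the enzyme needs to work, stood at 208 in control and 1343 in Activin at 11 hpf and at 251 and 583 at 19 hpf. SUZ12 rose 6.46-fold at 11 hpf (2.69 ± 0.39, adjusted p = 3.7e-11), held in all scalings, and 2.32-fold at 19 hpf (1.21 ± 0.40, adjusted p = 0.0070), a call lost on ribosomal centring at 0.16. EED (BL03115), which binds the mark that the complex makes, had means of 75.4 in control and 159.7 in Activin at 11 hpf and 87.3 and 349.9 at 19 hpf. In the authors' deposited table it was not called at 11 hpf (1.08 ± 0.55, adjusted p = 0.11) and rose 4.01-fold at 19 hpf (2.004 ± 0.50, adjusted p = 2.8e-04), which became 0.95 and not called on ribosomal centring. The 3 core genes all had higher means in Activin at both times, with EZH2 the one whose calls held throughout.

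CBX proteins of the Polycomb type bind methylated lysine 27 as part of Polycomb repressive complex 1. The 2 genes named CBX6 were low at 11 hpf, with rebuilt means between 1.37 and 7.81. At 19 hpf CBX6 (BL77655) rose by 2.11 ± 0.57 (adjusted p = 8.1e-04), lost on ribosomal centring, and CBX6 (BL04838) lay at 0.91 ± 0.49, not called, in the authors' deposited table. Of the 6 Polycomb genes 2 rose (33.3%) and 0 fell at 11 hpf, beside 12% higher and 24.6% lower of all genes. At 19 hpf 4 rose and 1 fell, or 66.7% and 16.7%, beside 18.7% and 27.7% of all genes.

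The maintenance DNA methyltransferase DNMT1 (BL13061), which copies methylation to the new strand after replication, had means of 728 in control and 351 in Activin at 11 hpf and 13.2 and 51.5 at 19 hpf. DNMT1 fell 2.07-fold at 11 hpf (-1.05 ± 0.40, adjusted p = 0.028) in the authors' deposited table, and the call was lost under upper-quartile and total-count scaling, at -0.61 and -0.075. At 19 hpf it lay at 1.96 ± 0.98 and was not called (adjusted p = 0.090), though it passed as higher under upper-quartile and total-count scaling. TET2 (BL00006), a dioxygenase that oxidises methylcytosine, lay at 0.97 ± 1.36 at 11 hpf and -1.43 ± 0.64 at 19 hpf (adjusted p = 0.053), called at neither time in the authors' deposited table but called lower at 19 hpf on ribosomal centring, at -2.48. HP1 proteins bind methylated lysine 9 of histone H3. Their one gene here, CBX3 (BL24937), had means of 5152 in control and 6784 in Activin at 11 hpf and 559.6 and 2811 at 19 hpf. CBX3 was not called at 11 hpf (0.40 ± 0.34, adjusted p = 0.38) and rose 5.02-fold at 19 hpf (2.33 ± 0.35, adjusted p = 1.7e-10) in the authors' deposited table, held in all scalings.

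Both enzymes that methylate lysine 9 of histone H3 were higher at 11 hpf. SETDB1 (BL03317) stood at 141 in control and 525 in Activin at 11 hpf and at 274 and 704 at 19 hpf. It rose by 1.90 ± 0.43 (adjusted p = 6.6e-05) at 11 hpf and by 1.36 ± 0.39 (adjusted p = 0.0017) at 19 hpf in the authors' deposited table, of which the first held in all scalings. EHMT1 (BL08071), which with its partner G9a makes the dimethyl mark, rose by 0.99 ± 0.39 (adjusted p = 0.035) at 11 hpf, a call lost on ribosomal centring at 0.62, and lay at 0.37 ± 0.40 at 19 hpf, called only under upper-quartile and total-count scaling.

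Of the 10 other methyltransferases 3 rose and 2 fell at 11 hpf, beside 12% higher and 24.6% lower of all genes. The share of falls was thus near that of all genes. At 19 hpf 5 rose and 0 fell, beside 18.7% and 27.7% of all genes, whereas ribosomal centring called 2 higher and 2 lower. Among these methyltransferases the smallest adjusted p at 19 hpf was that of SETD8 (BL07913). This enzyme adds the first methyl group to lysine 20 of histone H4 and acts in the cell cycle. Its means were 3746 in control and 3555 in Activin at 11 hpf and 60.02 and 660.3 at 19 hpf, so that both 19 hpf means were below those at 11 hpf, the control the more so. SETD8 was not called at 11 hpf (-0.075 ± 0.34, adjusted p = 0.88) and was 11.0-fold higher at 19 hpf (3.46 ± 0.43, adjusted p = 1.1e-14) in the authors' deposited table, held in all scalings. SUV420H1 (BL00306), which goes on to the di- and trimethyl form of the same lysine, fell, with a log2 change of -0.82 ± 0.34 at 11 hpf (adjusted p = 0.042), a call that turned to 0.16 under total-count scaling, and lay at -0.45 ± 0.34 at 19 hpf, not called. SETD1B methylates lysine 4 of histone H3 at active promoters. Both of its genes rose at 11 hpf in the authors' deposited table, SETD1B (BL20645) by 1.38 ± 0.39 (adjusted p = 0.0016) and SETD1B (BL04515) by 1.53 ± 0.57 (adjusted p = 0.022), and lay at 0.67 ± 0.37 and 0.70 ± 0.83 at 19 hpf, not called. The 11 hpf call of BL20645 held in all scalings, and that of BL04515 was lost on ribosomal centring at 1.16.

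SETD2 (BL15237), the enzyme that methylates lysine 36 behind RNA polymerase, was not called at 11 hpf (0.082 ± 0.33) and rose by 0.84 ± 0.33 (adjusted p = 0.027) at 19 hpf in the authors' deposited table, which became -0.21 on ribosomal centring. The 3 genes named SETD4 did not move together. SETD4 (BL22616) stood at 27.3 in control and 136 in Activin at 11 hpf and at 18.7 and 232 at 19 hpf, and rose by 2.31 ± 0.77 (adjusted p = 0.010) and 3.63 ± 0.60 (adjusted p = 1.2e-08), held in all scalings. SETD4 (BL03093), at 21.9 in control and 0.131 in Activin at 11 hpf and absent from the 19 hpf table, was called lower, its Activin mean being below 3 normalized counts, a floor under which no fold is given. SETD4 (BL14865), in the 19 hpf table alone, was not called. In mammals SETD3 methylates actin and SETD6 a subunit of NF-kB. Both rose at 19 hpf in the authors' deposited table, SETD3 by 1.63 ± 0.41 (adjusted p = 2.5e-04) and SETD6 by 2.14 ± 0.93 (adjusted p = 0.047), and both calls were lost on ribosomal centring, at 0.58 and 1.09. SETD7 was called at neither time.

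Of 16 lysine demethylases 5 were called higher and 3 lower at 11 hpf, or 31.2% and 18.8%, beside 12% and 24.6% of all genes. At 19 hpf 7 were higher and 3 lower, or 43.8% and 18.8%, beside 18.7% and 27.7% of all genes. The 3 lower calls at each time were all identifiers named KDM1B. KDM2B (BL05730), from a family that removes methyl groups from lysine 36 and in vertebrates brings a Polycomb complex to unmethylated CpG islands, had means of 192 in control and 3400.2 in Activin at 11 hpf and 25.6 and 382 at 19 hpf. It was 17.7-fold higher at 11 hpf (4.15 ± 0.35, adjusted p = 4.0e-30) and 14.9-fold higher at 19 hpf (3.90 ± 0.59, adjusted p = 3.1e-10) in the authors' deposited table, held in all scalings. The other KDM2B genes differed from it in size. KDM2B (BL01011) lay at 0.46 ± 0.45 at 11 hpf, not called, and rose by 1.21 ± 0.36 (adjusted p = 0.0023) at 19 hpf, lost on ribosomal centring, while KDM2B (BL16159) was called at neither time.

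KDM5C (BL41389), which removes methyl groups from lysine 4, stood at 809 in control and 3671 in Activin at 11 hpf and at 2111 and 4311 at 19 hpf. It rose by 2.18 ± 0.35 (adjusted p = 6.5e-09) and by 1.03 ± 0.31 (adjusted p = 0.0027) in the authors' deposited table, of which the first held in all scalings and the second became -0.019 on ribosomal centring. KDM1A (BL10757), the LSD1 demethylase of the CoREST corepressor, had means of 755 in control and 2744 in Activin at 11 hpf and 984 and 3309 at 19 hpf. KDM1A rose by 1.86 ± 0.36 (adjusted p = 1.2e-06) at 11 hpf, held in all scalings, and by 1.75 ± 0.32 (adjusted p = 1.7e-07) at 19 hpf, lost on ribosomal centring. KDM4C, a lysine 9 demethylase, rose at 11 hpf (0.98 ± 0.36, adjusted p = 0.020), lost on ribosomal centring, and lay at 0.60 ± 0.34, not called, at 19 hpf. KDM3B (BL04791), of the same substrate, lay at -0.0085 ± 0.35, not called, at 11 hpf and rose at 19 hpf (0.89 ± 0.32, adjusted p = 0.013), a value of -0.16 on ribosomal centring. The KDM6A genes, whose counterpart removes the Polycomb mark, lay at -0.065 ± 0.59 and 0.90 ± 1.497 at 11 hpf and 0.66 ± 0.57 and 1.97 ± 1.46 at 19 hpf for BL16694 and BL15740, none called in the authors' deposited table.

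The name KDM1B, of a flavin-dependent lysine 4 demethylase, is carried by 5 identifiers, which went opposite ways. KDM1B (BL19239) stood at 227 in control and 5.31 in Activin at 11 hpf and at 650.3 and 12.9 at 19 hpf, and was 42.7-fold lower at 11 hpf (-5.42 ± 0.66, adjusted p = 2.8e-15) and 50.2-fold lower at 19 hpf (-5.65 ± 0.49, adjusted p = 2.2e-29). KDM1B (BL15561) had means of 101 in control and 3.93 in Activin at 11 hpf and 270.0 and 5.47 at 19 hpf, 25.8-fold and 49.3-fold lower (-4.69 ± 0.83 and -5.62 ± 0.67, adjusted p = 1.4e-07 and 6.9e-16). KDM1B (BL03138) stood at 416 in control and 19.1 in Activin at 11 hpf and at 1089.9 and 30.9 at 19 hpf, 21.8-fold and 35.3-fold lower (-4.45 ± 0.51 and -5.14 ± 0.40, adjusted p = 2.7e-17 and 2.7e-35). These 3 had the lowest log2 fold changes at 19 hpf of all chromatin genes in the authors' deposited table, and held in all scalings at both times. KDM1B (BL07876), at 97.5 in control and 425 in Activin at 11 hpf and 252 and 1065 at 19 hpf, rose instead, 4.36-fold and 4.23-fold (2.13 ± 0.47 and 2.08 ± 0.37, adjusted p = 3.2e-05 and 8.4e-08), also in all scalings. KDM1B (BL03943) rose by 2.45 ± 0.94 (adjusted p = 0.022) at 19 hpf from a control mean of 11.7, a call lost on ribosomal centring. Whether all 5 encode the same enzyme cannot be read from the tables.

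Acetyltransferases and bromodomain proteins add and bind the acetyl mark of active chromatin. KAT2B (BL18810), the PCAF acetyltransferase, had means of 2629 in control and 1973 in Activin at 11 hpf and 672 and 2103 at 19 hpf. It was not called at 11 hpf (-0.41 ± 0.34) and rose 3.13-fold at 19 hpf (1.65 ± 0.33, adjusted p = 2.4e-06) in the authors' deposited table, which became 0.60 and not called on ribosomal centring. KAT5, of the TIP60 complex, was called at neither time (0.83 ± 0.40 and -0.091 ± 0.37). BRD8, another TIP60 subunit, rose by 1.80 ± 0.45 (adjusted p = 3.0e-04) at 11 hpf, held in all scalings, and lay at 0.62 ± 0.39, not called, at 19 hpf. BRD7, a subunit of the PBAF form of SWI/SNF, rose by 1.27 ± 0.35 at 11 hpf, held in all scalings, and 1.27 ± 0.34 at 19 hpf, lost on ribosomal centring, in the authors' deposited table. BRD2 (BL03451), of the BET family, was called at neither time (-0.28 ± 0.33 and 0.45 ± 0.30), though it passed as higher at 19 hpf under upper-quartile and total-count scaling.

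Deacetylases take the acetyl mark off; some rose at both times, and others fell at 19 hpf. HDAC8 (BL11384) stood at 77.6 in control and 649 in Activin at 11 hpf and at 18.1 and 271 at 19 hpf. HDAC8 was 8.37-fold higher at 11 hpf (3.07 ± 0.43, adjusted p = 7.4e-12) and 15-fold higher at 19 hpf (3.91 ± 0.59, adjusted p = 2.6e-10) in the authors' deposited table, held in all scalings. In vertebrates this enzyme also acts on the cohesin ring. HDAC2 (BL12327), a catalytic subunit of the NuRD, Sin3 and CoREST corepressors, had means of 9363 in control and 8205 in Activin at 11 hpf and 3131 and 8049 at 19 hpf. It was not called at 11 hpf (-0.19 ± 0.33, adjusted p = 0.69), though 0.79 and called under total-count scaling, and rose 2.57-fold at 19 hpf (1.36 ± 0.30, adjusted p = 2.9e-05), which became 0.31 and not called on ribosomal centring. HDAC3, of the NCoR corepressor, rose by 1.57 ± 0.47 (adjusted p = 0.0031) at 11 hpf, held in all scalings, and HDAC4, a class IIa enzyme, by 1.45 ± 0.50 (adjusted p = 0.013), lost on ribosomal centring. Neither was called at 19 hpf in the authors' deposited table, where HDAC4 passed as lower on ribosomal centring at -1.88.

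The genes that fell among the deacetylases did so at 19 hpf. HDAC6 (BL00553), named for a cytoplasmic tubulin deacetylase, stood at 49.9 in control and 16.4 in Activin at 11 hpf and at 168 and 7.10 at 19 hpf. HDAC6 was 23.7-fold lower at 19 hpf (-4.57 ± 0.75, adjusted p = 7.2e-09) and lay at -1.61 ± 0.91, not called, at 11 hpf in the authors' deposited table. HDAC11 (BL05327) had means of 18.8 in control and 3.37 in Activin at 11 hpf and 145 and 6.74 at 19 hpf, and was 21.6-fold lower at 19 hpf (-4.43 ± 0.75, adjusted p = 2.4e-08). Both falls held in all scalings, and 2 further HDAC6 identifiers, found at 19 hpf alone, were not called. SIRT3 (BL23249), a mitochondrial sirtuin in vertebrates, fell, with a log2 change of -1.65 ± 0.44 (adjusted p = 5.7e-04) at 19 hpf, a call lost under total-count scaling at -0.79. SIRT6 (BL24739), a nuclear sirtuin of DNA repair and telomeric chromatin, rose by 1.70 ± 0.68 (adjusted p = 0.036) at 11 hpf, lost on ribosomal centring at 1.33, and by 2.36 ± 0.57 (adjusted p = 1.3e-04) at 19 hpf, held in all scalings. SIRT1, SIRT2, SIRT7 and both SIRT4 genes were called at neither time. Of 13 deacetylases 4 rose and 0 fell at 11 hpf, beside 12% higher and 24.6% lower of all genes. Of 15 at 19 hpf 3 rose and 3 fell, beside 18.7% and 27.7% of all genes. The share of rises at 19 hpf was thus near that of all genes, and the share of falls somewhat below it. On ribosomal centring 2 deacetylases were called higher and 1 lower at 11 hpf, and 2 higher and 9 lower at 19 hpf. Their median at 19 hpf was then -1.64, against -0.59 as deposited.

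**Figure D3:**
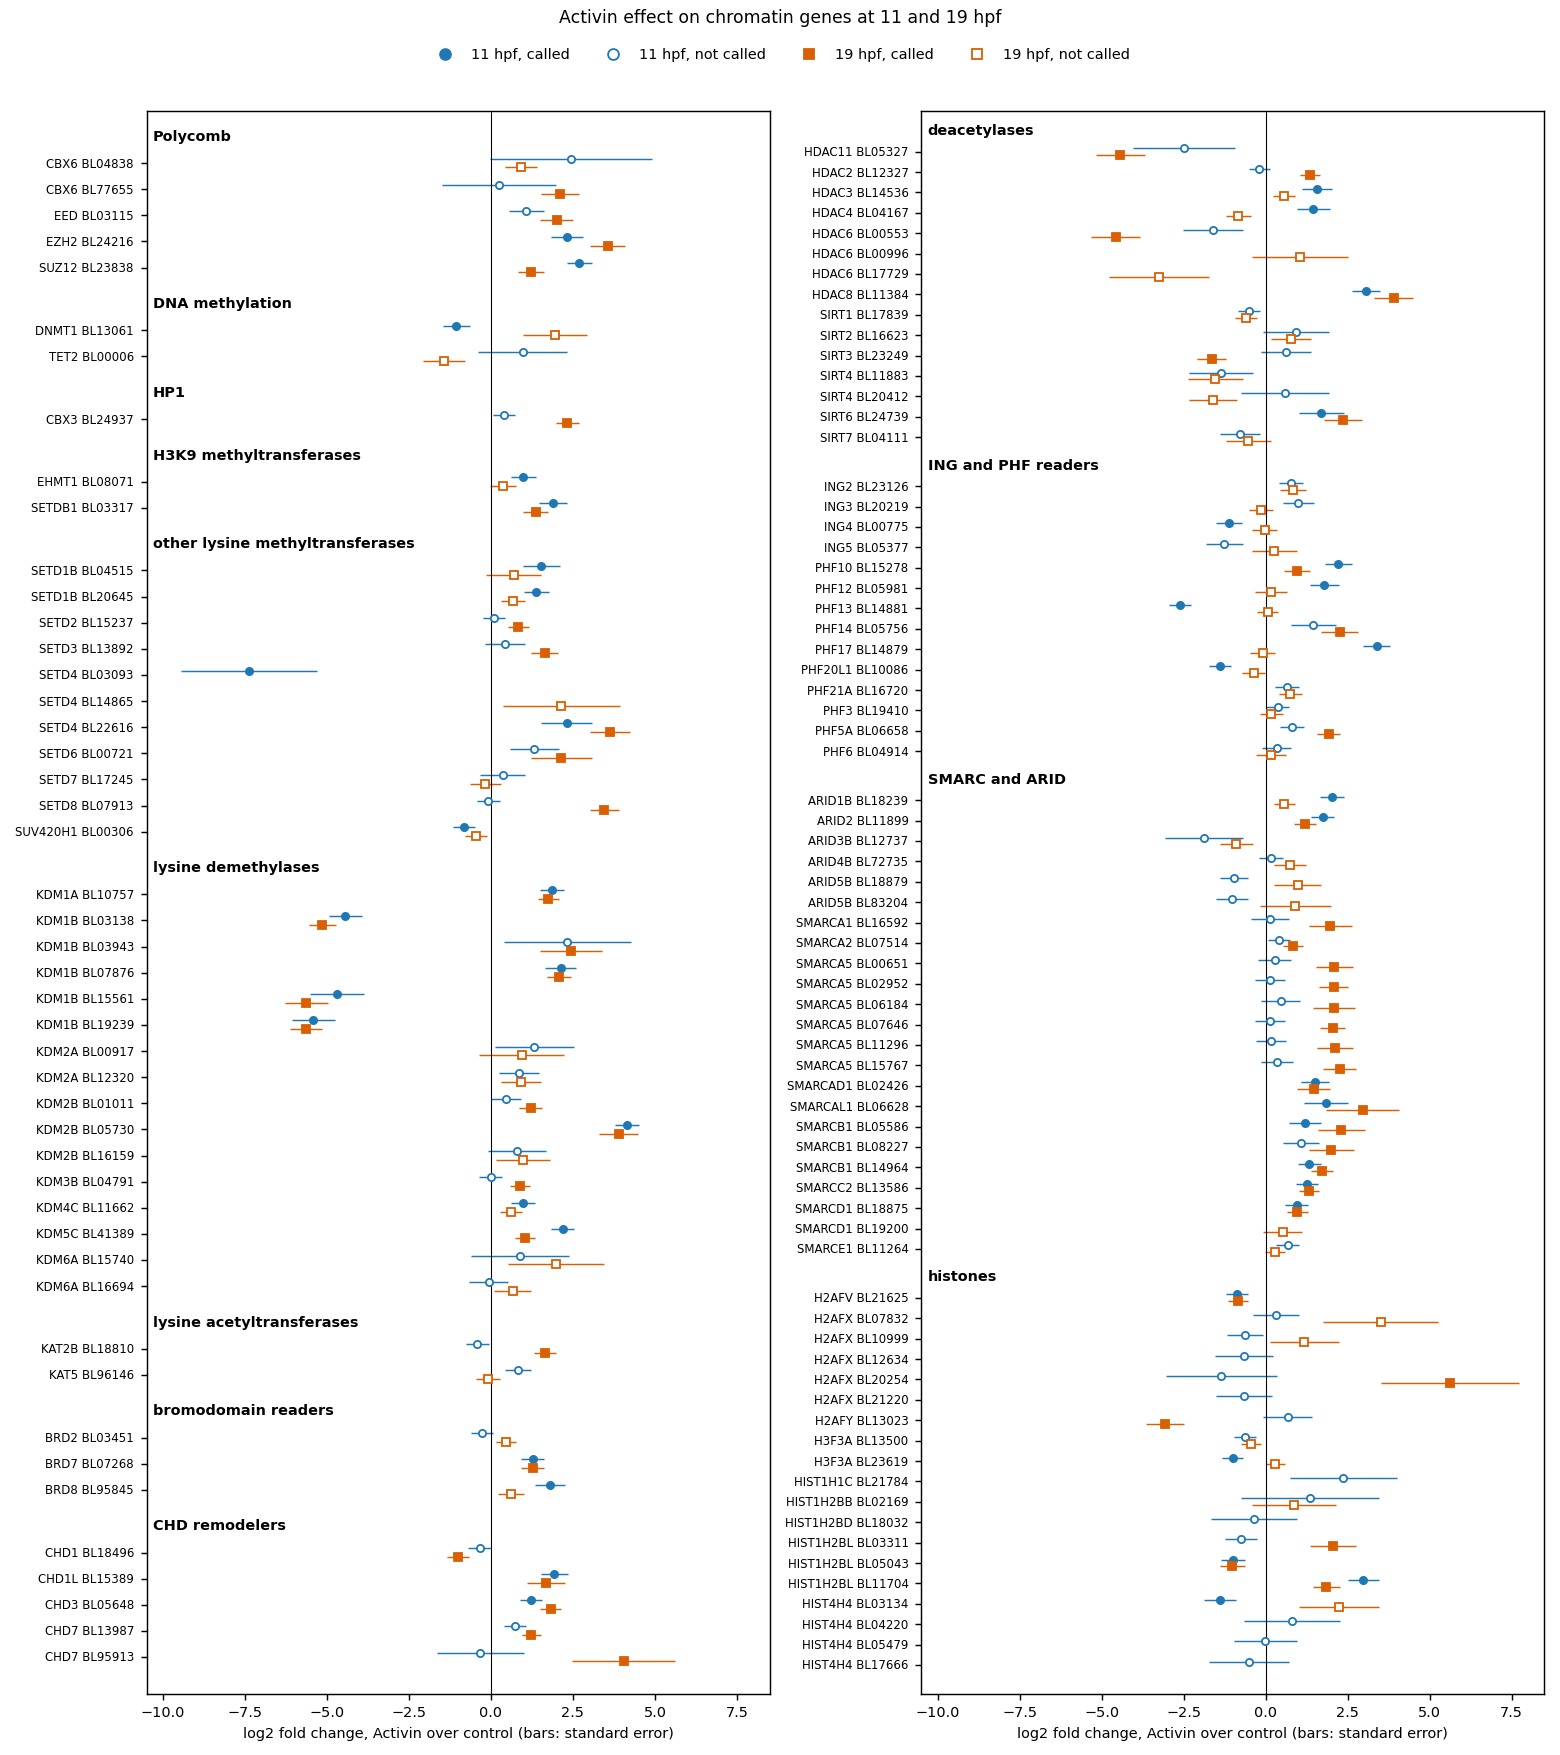
Log2 fold change of Activin over control for the chromatin genes reported here, by role, at 11 hpf (blue circles) and 19 hpf (orange squares); bars are the standard errors of the authors' deposited table, filled symbols are called genes and open ones are not. KDM2B (BL05730), HDAC8 and EZH2 lie far right at both times, 3 KDM1B genes lie far left at both times, and the 6 SMARCA5 genes sit near 0 at 11 hpf and close to 2 at 19 hpf.

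A pair of PHD-finger genes changed strongly at 11 hpf, in opposite directions, and neither was called at 19 hpf. PHF17 (BL14879), also known as JADE1 and part of an acetyltransferase complex for histone H4, had means of 73.4 in control and 765 in Activin at 11 hpf and 469.7 and 442 at 19 hpf. PHF17 was 10.4-fold higher at 11 hpf (3.38 ± 0.43, adjusted p = 3.3e-14), held in all scalings, and was not called at 19 hpf (-0.087 ± 0.39, adjusted p = 0.87). PHF13 (BL14881), a reader of methylated lysine 4, stood at 8914 in control and 1460.4 in Activin at 11 hpf and at 2479.9 and 2602 at 19 hpf. It fell 6.10-fold at 11 hpf (-2.61 ± 0.33, adjusted p = 4.7e-14), held in all scalings, and was not called at 19 hpf (0.069 ± 0.32, adjusted p = 0.87) in the authors' deposited table. On ribosomal centring both were called lower at 19 hpf, at -0.98 for PHF13 and -1.14 for PHF17, and under total-count scaling PHF13 was called higher, at 0.93.

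PHF20L1 (BL10086) fell at 11 hpf, with a log2 change of -1.39 ± 0.34 (adjusted p = 2.9e-04), lost under total-count scaling at -0.41, as did ING4 (BL00775), a subunit of an acetyltransferase complex, with -1.11 ± 0.39 (adjusted p = 0.013), lost under upper-quartile and total-count scaling at -0.67 and -0.14. Neither was called at 19 hpf in the authors' deposited table (-0.37 ± 0.34 and -0.022 ± 0.38). PHF10 (BL15278), a PBAF subunit, rose by 2.22 ± 0.41 (adjusted p = 5.2e-07) at 11 hpf, held in all scalings, and by 0.96 ± 0.40 (adjusted p = 0.037) at 19 hpf, a value of -0.085 on ribosomal centring. PHF12, of a Sin3 corepressor, rose at 11 hpf by 1.79 ± 0.45 (adjusted p = 3.5e-04), held in all scalings. At 19 hpf PHF14 (BL05756) rose by 2.26 ± 0.56 (adjusted p = 2.4e-04) and PHF5A, a splicing factor despite its zinc finger name, by 1.93 ± 0.36 (adjusted p = 3.9e-07), of which the latter held in all scalings. Of 14 ING and PHF genes 3 rose and 3 fell at 11 hpf, or 21.4% each, beside 12% higher and 24.6% lower of all genes. At 19 hpf 3 rose and 0 fell, and the 21.4% higher was near the 18.7% of all genes, of which 27.7% were lower. ING2, ING3 and ING5 were called at neither time. On ribosomal centring the 19 hpf count turned to 1 higher and 6 lower, with a median of -0.88 against 0.17 as deposited, and ING4 was among the lower at -1.07. Under total-count scaling 10 were higher and 1 lower at 11 hpf, and 8 higher and 0 lower at 19 hpf.

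SMARC and ARID genes encode subunits of the SWI/SNF remodeler, ATPases of the ISWI type and several relatives outside both. None was called lower at either time as deposited. Of 22 measured at 11 hpf 8 rose (36.4%, beside 12% of all genes), 5 of them in all scalings. Of 23 at 19 hpf 16 rose (69.6%, beside 18.7% of all genes), 3 of them in all scalings. Ribosomal centring called 5 higher and 2 lower at 11 hpf and 3 higher and 2 lower at 19 hpf, whereas total-count scaling called 18 and 21 higher and none lower. ARID1B (BL18239), the DNA-binding subunit of the BAF form, had means of 2113 in control and 8573 in Activin at 11 hpf and 4590.4 and 6832 at 19 hpf. ARID1B rose 4.06-fold at 11 hpf (2.02 ± 0.37, adjusted p = 2.9e-07), held in all scalings, and was not called at 19 hpf (0.57 ± 0.32, adjusted p = 0.13), though it passed there under upper-quartile and total-count scaling. ARID2, the counterpart in PBAF, rose by 1.74 ± 0.35 (adjusted p = 4.7e-06) at 11 hpf, held in all scalings, and by 1.21 ± 0.34 (adjusted p = 0.0011) at 19 hpf, lost on ribosomal centring, in the authors' deposited table. SMARCC2, a scaffold of the complex, stood at 2545 in control and 6142 in Activin at 11 hpf and at 1959 and 4931 at 19 hpf, and rose by 1.27 ± 0.33 (adjusted p = 6.6e-04), held in all scalings, and 1.33 ± 0.31 (adjusted p = 6.2e-05), lost on ribosomal centring. SMARCD1 (BL18875) rose by 0.95 ± 0.35 and 0.96 ± 0.32 in the authors' deposited table, and ribosomal centring ended both calls and turned the second to -0.087. The ATPase SMARCA2 lay at 0.40 ± 0.34, not called, at 11 hpf and rose by 0.82 ± 0.31 (adjusted p = 0.018) at 19 hpf, which turned to -0.22 on ribosomal centring. SMARCE1 was called at neither time.

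SMARCB1, a core subunit, has 3 identifiers, and their log2 fold changes lay between 1.09 and 1.34 at 11 hpf and between 1.71 and 2.31 at 19 hpf. SMARCB1 (BL14964), with means of 693 in control and 1752 in Activin at 11 hpf, rose by 1.34 ± 0.36 (adjusted p = 9.2e-04), held in all scalings, and SMARCB1 (BL05586) by 1.21 ± 0.50 (adjusted p = 0.043), lost on ribosomal centring at 0.84. All 3 rose at 19 hpf in the authors' deposited table, with SMARCB1 (BL05586) at 2.31 ± 0.71 (adjusted p = 0.0036), and none of the 3 was called on ribosomal centring. Relatives outside the complex also rose, SMARCAL1 (BL06628), an annealing helicase of stalled replication forks, by 1.84 ± 0.67 (adjusted p = 0.018) and 2.96 ± 1.11 (adjusted p = 0.019), and SMARCAD1, a remodeler that acts behind the fork, by 1.503 ± 0.43 (adjusted p = 0.0021) and 1.46 ± 0.51 (adjusted p = 0.011). Of these 4 calls, that of SMARCAD1 at 11 hpf held in all scalings and the others were lost on ribosomal centring. ARID3B and both ARID5B genes, DNA-binding proteins outside SWI/SNF, were called at neither time.

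SMARCA5, the ISWI ATPase that spaces nucleosomes, has 6 identifiers with like changes. Their log2 fold changes lay between 0.12 and 0.45 at 11 hpf, none called, and between 2.05 and 2.27 at 19 hpf, all 6 called higher in the authors' deposited table. SMARCA5 (BL07646) had means of 350.1 in control and 385 in Activin at 11 hpf and 187 and 773 at 19 hpf, 4.13-fold higher (2.05 ± 0.38, adjusted p = 5.9e-07). SMARCA5 (BL15767) stood at 247 in control and 314 in Activin at 11 hpf and at 62.8 and 302 at 19 hpf, 4.81-fold higher (2.27 ± 0.50, adjusted p = 2.9e-05). On ribosomal centring 3 of the 6 stayed called at 19 hpf, BL02952, BL07646 and BL15767. Whether the 6 are parts or copies of 1 locus and share reads was not tested, so their calls cannot be counted as 6 independent results. Leaving out every symbol with more than 1 identifier gave 23 higher and 6 lower of 66 genes at 11 hpf, and 28 higher and 6 lower of 64 at 19 hpf, or 34.8% and 43.8% higher. SMARCA1, the other ISWI ATPase, lay at 0.13 ± 0.59, not called, and rose by 1.98 ± 0.65 (adjusted p = 0.0069) at 19 hpf, lost on ribosomal centring.

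Of the CHD remodelers, CHD3 (BL05648), the ATPase of the NuRD corepressor, had means of 3936 in control and 9162 in Activin at 11 hpf and 2082 and 7342 at 19 hpf. CHD3 rose 2.33-fold at 11 hpf (1.22 ± 0.33, adjusted p = 0.0011) and 3.53-fold at 19 hpf (1.82 ± 0.31, adjusted p = 3.0e-08) in the authors' deposited table, held in all scalings at both times. CHD7 (BL13987), a remodeler of enhancers needed for neural crest in vertebrates, stood at 6271 in control and 10472 in Activin at 11 hpf and at 4005 and 9425 at 19 hpf. It was not called at 11 hpf (0.74 ± 0.34, adjusted p = 0.077) and rose by 1.23 ± 0.30 (adjusted p = 1.7e-04) at 19 hpf, which became 0.19 on ribosomal centring. CHD1L (BL15389), a helicase of DNA repair, rose by 1.93 ± 0.41 (adjusted p = 1.5e-05), held in all scalings, and by 1.68 ± 0.59 (adjusted p = 0.012), lost on ribosomal centring at 0.63. CHD1 (BL18496), a remodeler of transcribed genes, was the one that fell, at 19 hpf (-0.998 ± 0.33, adjusted p = 0.0074), a call lost under upper-quartile and total-count scaling at -0.46 and -0.14. CHD7 (BL95913), a second identifier with a mean under 20 normalized counts at both times, was called higher at 19 hpf with a control mean under the floor, a call lost on ribosomal centring.

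Of the 19 histones measured at 11 hpf 1 rose and 4 fell, or 5.26% and 21.1%, beside 12% and 24.6% of all genes, so that the share of falls was near that of all genes. Whether histones differed from the other chromatin genes was not tested. H3F3A (BL23619), which encodes the replacement histone H3.3, had means of 143785 in control and 71574 in Activin at 11 hpf and 22002 and 27087 at 19 hpf. It fell 2.01-fold at 11 hpf (-1.01 ± 0.33, adjusted p = 0.0079) and was not called at 19 hpf (0.30 ± 0.30, adjusted p = 0.42) in the authors' deposited table. With upper-quartile or total-count scaling its value at 11 hpf was -0.57 and -0.030 and not called, and at 19 hpf it was called higher there, at 0.84 and 1.16, but lower on ribosomal centring, at -0.75. The direction of H3F3A (BL23619) at 19 hpf therefore rests on the scaling. A second identifier, H3F3A (BL13500), was called at neither time in the authors' deposited table. It lay at -0.63 ± 0.33 (adjusted p = 0.12) at 11 hpf and -0.44 ± 0.31 (adjusted p = 0.23) at 19 hpf. Its mean over both groups at 19 hpf was 34579 normalized counts, beside 24545 for BL23619. H2AFV (BL21625), a variant of the H2A.Z family found at promoters, stood at 60108 in control and 32959 in Activin at 11 hpf and at 35094 and 19641 at 19 hpf. It fell, with a log2 change of -0.87 ± 0.33 (adjusted p = 0.024) and -0.84 ± 0.31 (adjusted p = 0.018), which turned to 0.11 and 0.021 under total-count scaling, not called. No histone call for lower at 11 hpf held in all scalings.

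The macroH2A gene H2AFY (BL13023), a variant linked to silent chromatin, had means of 39.4 in control and 62.7 in Activin at 11 hpf and 219 and 25.98 at 19 hpf. H2AFY was not called at 11 hpf (0.67 ± 0.74, adjusted p = 0.52) and was 8.44-fold lower at 19 hpf (-3.08 ± 0.58, adjusted p = 6.3e-07) in the authors' deposited table, held in all scalings. The 3 HIST1H2BL genes, which encode histone H2B, differed among themselves. HIST1H2BL (BL05043) stood at 2007 in control and 1009.6 in Activin at 11 hpf and at 748 and 372 at 19 hpf, and fell, with a log2 change of -0.99 ± 0.36 (adjusted p = 0.019) and -1.01 ± 0.37 (adjusted p = 0.017), both lost under upper-quartile and total-count scaling. HIST1H2BL (BL11704) had means of 90.3 in control and 714 in Activin at 11 hpf and 156 and 564 at 19 hpf, and rose by 2.98 ± 0.47 (adjusted p = 1.7e-09), held in all scalings, and by 1.85 ± 0.41 (adjusted p = 3.4e-05), lost on ribosomal centring. HIST1H2BL (BL03311) was not called at 11 hpf (-0.76 ± 0.49) and rose by 2.06 ± 0.70 (adjusted p = 0.0089) at 19 hpf in the authors' deposited table.

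HIST4H4 (BL03134), for histone H4, had means of 2585 in control and 985 in Activin at 11 hpf and 7.51 and 35.4 at 19 hpf, and fell, with a log2 change of -1.39 ± 0.49 (adjusted p = 0.015) at 11 hpf, a call lost under upper-quartile and total-count scaling at -0.95 and -0.42. At 19 hpf it was not called (2.24 ± 1.22, adjusted p = 0.12), though it passed as higher under the same 2 scalings. Of the 8 chromatin genes found in the 11 hpf table alone 7 were histones, 3 of them HIST4H4 and 2 H2AFX, with HIST1H1C and HIST1H2BD. Of the 115 chromatin genes at 11 hpf 107 were in both tables, beside 13528 of 15793 genes in all. The 7 histones had means between 9.59 and 34.4 normalized counts at 11 hpf. Whether a filter on low counts left them out at 19 hpf was not tested. Libraries were made from poly(A) RNA, and in animals most transcripts of replication-dependent histones end without a poly(A) tail. These values may therefore not follow the level of such transcripts. Of the 12 histones measured at 19 hpf 3 rose and 3 fell, or 25.0% each, beside 18.7% and 27.7% of all genes. The 3 rises did not hold on ribosomal centring. One of them, H2AFX (BL20254), had a control mean under the floor.

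**Figure D4:**
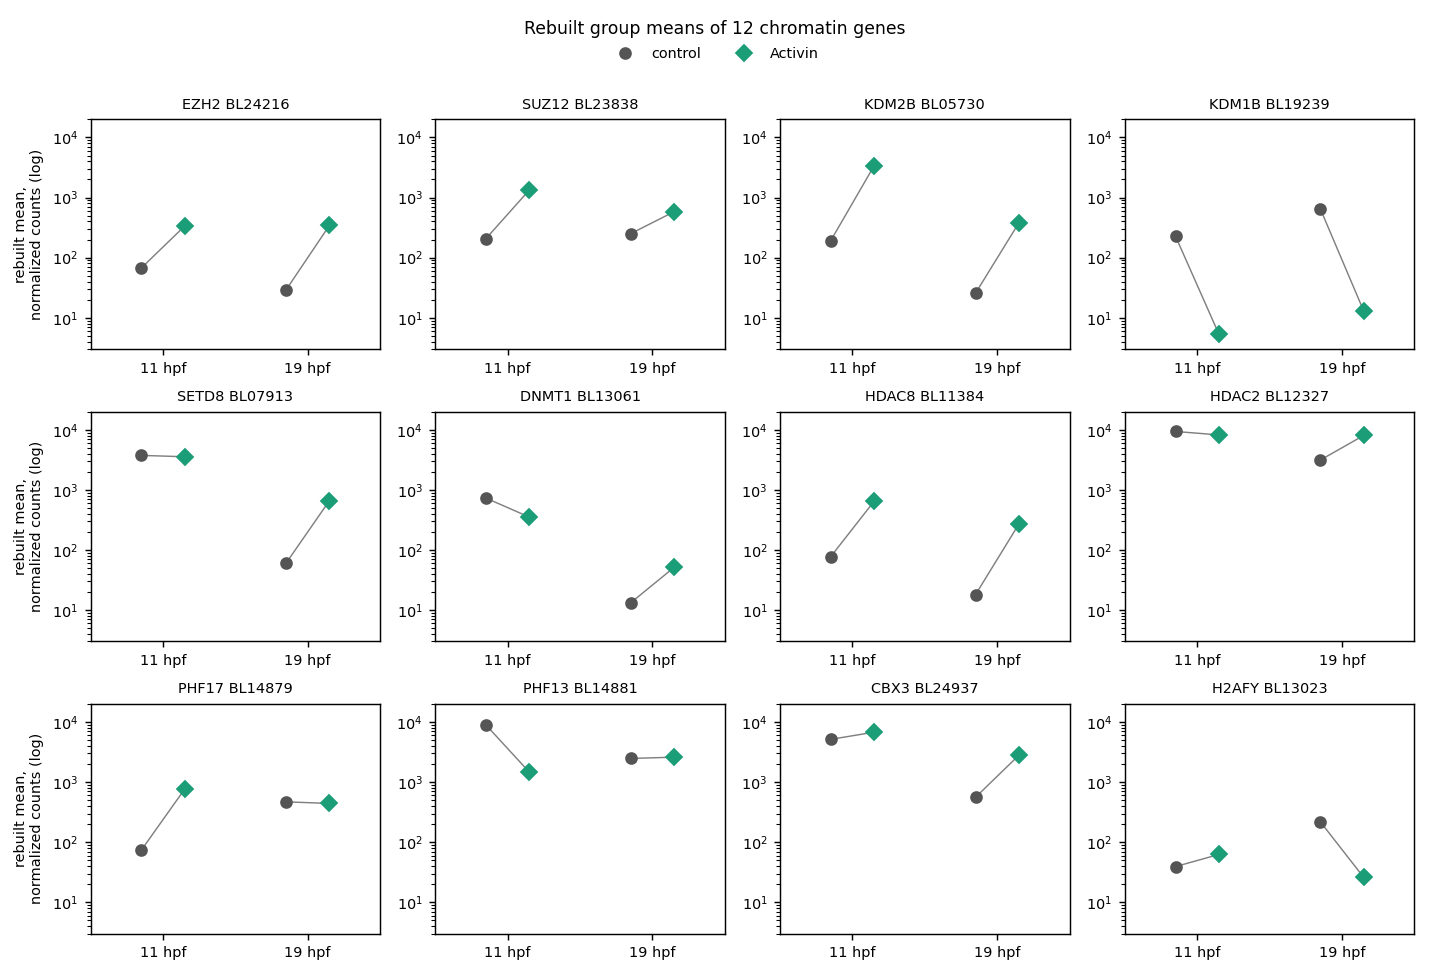
Rebuilt group means, in normalized counts on a log axis, of 12 chromatin genes in control (grey circles) and Activin (green diamonds) at 11 and 19 hpf, with a line joining the groups of a time; the files give no error for a group mean. EZH2, KDM2B (BL05730) and HDAC8 are higher in Activin at both times, KDM1B (BL19239) is lower at both, and SETD8, HDAC2 and CBX3 have control means at 19 hpf well below those at 11 hpf while their Activin means differ less between times.

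The Activin effect at 19 hpf was set against that at 11 hpf with a Wald test of the difference for 13528 genes present in both tables, which share no library. Among the 107 chromatin genes 13 had a higher effect at 19 hpf and 5 a lower one, or 12.1% and 4.67%, beside 10.1% and 6.70% of all genes. The share called in either direction was 16.8% for chromatin genes and 16.8% for all genes, which leaves nothing to read about chromatin genes as a group from that count. The median difference was 0.18 for chromatin genes and 0.17 for all genes. No chromatin gene was called in opposite directions at the 2 times. In all 22 were higher and 5 lower at both, 20.6% and 4.67% of the 107, beside 966 (7.14%) and 2435 of the 13528 genes in both tables. Another 27 (25.2%) were called higher at 19 hpf and not called at 11 hpf, beside 13.4% of all genes in both tables. These counts are those of the deposited scaling.

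**Figure D5:**
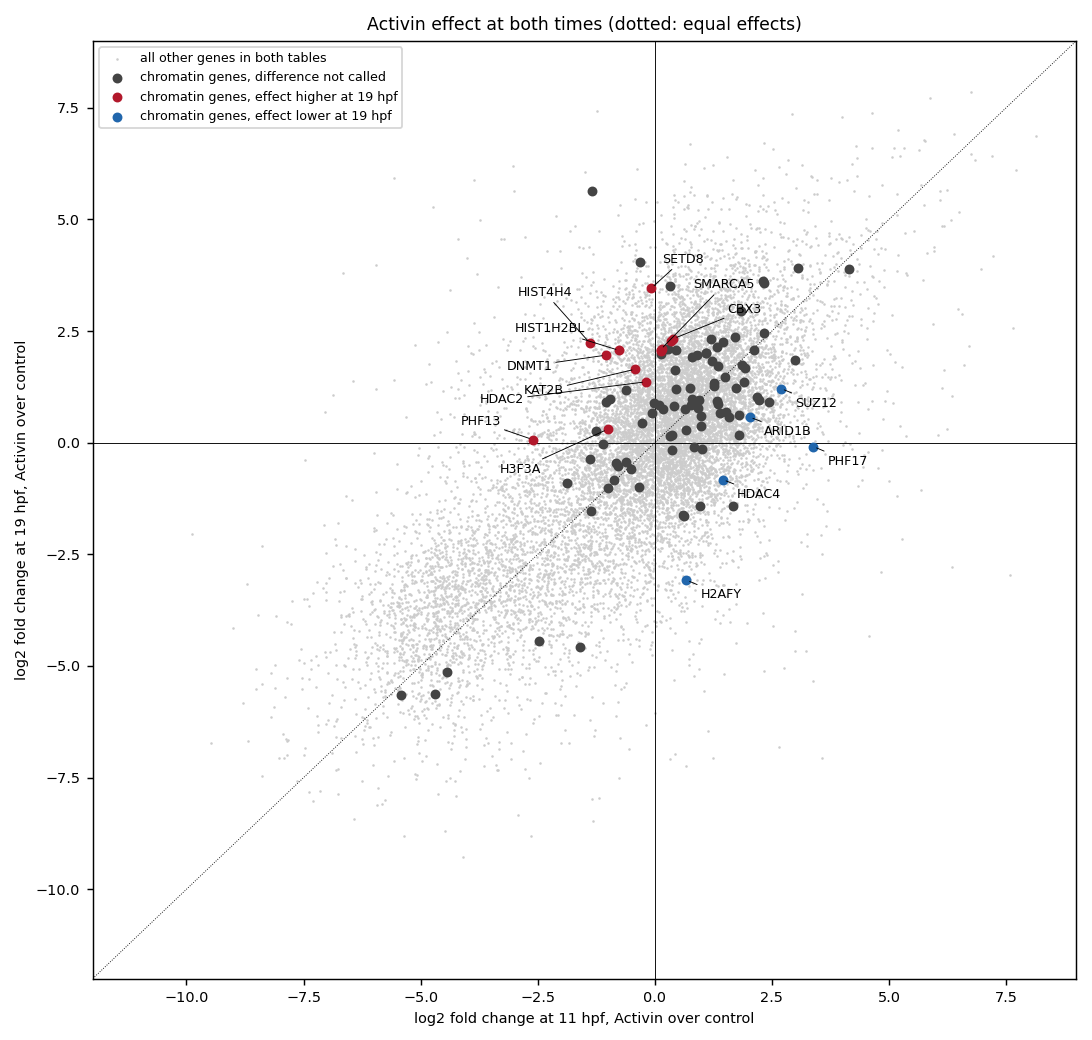
Log2 fold change of Activin over control at 11 hpf (x axis) and 19 hpf (y axis) for all genes in both tables (grey) and chromatin genes (larger points), coloured red or blue where the effect was called higher or lower at 19 hpf by the Wald test of the difference; the dotted line marks equal effects. SETD8 lies near 0 at 11 hpf and above 3 at 19 hpf, PHF17 above 3 at 11 hpf and near 0 at 19 hpf, and the label SMARCA5 stands for 4 points close together.

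SETD8 had the largest rise in effect that held in all scalings, 3.54 ± 0.55 (adjusted p = 1.2e-08, Wald test with Benjamini-Hochberg adjustment), followed by PHF13 at 2.68 ± 0.46 (adjusted p = 3.8e-07), KAT2B at 2.06 ± 0.47 (adjusted p = 2.8e-04) and CBX3 at 1.93 ± 0.49 (adjusted p = 0.0012). PHF13 reached its difference another way, from a fall at 11 hpf to none called at 19 hpf. The other 9 rises in effect, those of DNMT1 (3.01), HDAC2 (1.55), H3F3A (BL23619, 1.31), HIST1H2BL (BL03311, 2.82), HIST4H4 (BL03134, 3.63) and 4 SMARCA5 genes (1.91 to 1.96), were lost on ribosomal centring.

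The deepest falls in effect were those of PHF17 at -3.47 ± 0.57 (adjusted p = 1.4e-07) and H2AFY at -3.75 ± 0.94 (adjusted p = 0.0012), both held in all scalings. HDAC4 went from 1.45 ± 0.50 at 11 hpf to -0.83 ± 0.37 at 19 hpf, a difference of -2.28 ± 0.63 (adjusted p = 0.0038), with the 11 hpf value called and the later one not. ARID1B (-1.45 ± 0.49, adjusted p = 0.023) was lower in effect in all scalings as well, and SUZ12 (-1.48 ± 0.56, adjusted p = 0.047) in all but upper-quartile scaling. For EZH2 the difference of 1.24 ± 0.72 was not called (adjusted p = 0.25), with an interval at 95% confidence of -0.17 to 2.65, and neither was that of KDM2B (BL05730), at -0.25 ± 0.69 with an interval of -1.60 to 1.10.

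Partners of these proteins that the prefixes leave out were read from a list of 80 symbols, of which 52 were measured at 11 hpf and 53 at 19 hpf. Some symbols had several identifiers, so that 61 gene identifiers were measured at either time. At 11 hpf 29 of 59 rose and 2 fell, and at 19 hpf 25 of 60 rose and 4 fell, with medians of 1.05 and 0.74. Higher calls thus made up 49.2% and 41.7%, beside 12% and 18.7% of all genes. On ribosomal centring 22 were higher and 3 lower at 11 hpf, but 10 higher and 14 lower at 19 hpf, with medians of 0.68 and -0.31. Other subunits of the Polycomb complexes gave 2.56 ± 0.43 at 11 hpf and 0.95 ± 0.38 at 19 hpf for JARID2, a cofactor of the lysine 27 methyltransferase, both called, in the authors' deposited table, and the second turned to -0.10 on ribosomal centring. RBBP4, a histone chaperone of that complex and of NuRD, rose by 0.90 ± 0.37, lost on ribosomal centring at 0.53, and 3.11 ± 0.35, held in all scalings. PCGF1, of the Polycomb complex that KDM2B belongs to in vertebrates, fell, with log2 changes of -1.99 ± 0.54 and -1.98 ± 0.57, both lost under total-count scaling. Its relatives PCGF3 and PCGF6 rose, by 1.77 ± 0.48 at 11 hpf and 3.23 ± 0.94 at 19 hpf, each called at that time alone and held in all scalings. At 11 hpf alone AEBP2 and PHC2 rose, by 1.81 ± 0.37 and 1.22 ± 0.43, the latter lost on ribosomal centring. RNF2, BMI1 and MTF2 were called at neither time in the authors' deposited table. In SWI/SNF the actin-related ACTL6A rose by 1.33 ± 0.35 and 2.13 ± 0.33 and PBRM1, of the PBAF form, by 1.75 ± 0.36 and 1.45 ± 0.32, of which PBRM1 at 19 hpf alone was lost, on ribosomal centring at 0.40. The histone chaperone SSRP1 rose by 1.82 ± 0.49 and 3.96 ± 0.42 in the authors' deposited table and its partner SUPT16H by 2.12 ± 0.40 and 1.999 ± 0.40, held in all scalings. PRMT1, an arginine methyltransferase, has a pair of identifiers that differed. PRMT1 (BL21517) fell at 11 hpf, with a log2 change of -4.58 ± 0.35 between rebuilt means of 54867 in control and 2294 in Activin, held in all scalings, and lay at -0.76 ± 0.35, not called, at 19 hpf. PRMT1 (BL00796) rose by 0.96 ± 0.34 at 11 hpf, lost on ribosomal centring, and by 3.47 ± 0.32 at 19 hpf, held in all scalings. Of the partners of lysine 4 methyltransferases, WDR5 (BL14780) and DPY30 fell at 19 hpf, with log2 changes of -1.74 ± 0.43 and -0.97 ± 0.31 in the authors' deposited table. The fall of WDR5 (BL14780) was lost under total-count scaling at -0.88, and that of DPY30 under upper-quartile and total-count scaling. WDR5 (BL00969) rose instead at 19 hpf, by 2.02 ± 0.34, held in all scalings. ASH2L rose by 1.86 ± 0.37 at 11 hpf, held in all scalings, and by 1.04 ± 0.35 at 19 hpf, lost on ribosomal centring. RBBP5 and MEN1 (BL13901) rose at 11 hpf, by 1.73 ± 0.47 and 2.90 ± 0.95, held in all scalings. Neither was called at 19 hpf in the authors' deposited table. The acetyltransferase EP300 was called at neither time (0.49 ± 0.49 and 0.33 ± 0.63).

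Markers of cell types and of proliferation moved in the same explants. Their counts are of gene identifiers, beside 12% higher and 24.6% lower of all genes at 11 hpf, and 18.7% and 27.7% at 19 hpf. The summed rebuilt level of the epidermal markers went from 324411 in control to 13436 in Activin at 11 hpf and from 777896 to 39212 at 19 hpf. KRT8 (BL15060) made up most of both control sums, at 257288 and 739980, and had Activin means of 4415 and 31113. Its log2 change at 19 hpf was -4.57 ± 1.52. Of the epidermal markers 5 of 7 and 6 of 8 were lower. The other 2 at each time, both named TP63, were higher. Motile cilia markers fell in 15 of 17 and 17 of 18, from 51725 to 4851 at 11 hpf and from 102581 to 8193 at 19 hpf. Of 10 neural plate markers 5 rose and 2 fell at 11 hpf and 6 rose and 3 fell at 19 hpf. Among the neural plate markers ZIC1 and OTX2 rose and SIX3 fell at both times. Neuronal markers numbered 2 higher and 7 lower of 12 at 11 hpf and 2 higher and 10 lower of 15 at 19 hpf. NEUROG3 and ELAVL4 were the 2 higher at each time, and several of the lower identifiers shared the symbol SLC17A6. Mesoderm markers numbered 2 higher of 6 and 3 higher of 7, with 0 lower, and endoderm markers 2 higher and 1 lower of 5, then 3 higher and 1 lower of 5. Genes of DNA replication and cell division, such as the MCM helicase, rose in 8 of 15 and fell in 2 at 11 hpf, and rose in 13 of 15 and fell in 0 at 19 hpf. The summed level of the replication and division genes was 92029 in control and 56285 in Activin at 11 hpf, and 3246 and 13298 at 19 hpf. Most of both 11 hpf sums came from RRM2 (BL04678), RRM2 (BL12324) and MKI67. Their means were 35830, 27666 and 17691 in control and 10657, 13669 and 12221 in Activin. These 2 RRM2 genes were the 2 called lower, and MKI67 was not called, so the fall of the sum is not that of most genes in the list. At 11 hpf the Activin means of TPPP3, NEUROG2, 1 DNAH9 gene and both PAX6 genes, and the control mean of NKX2-1, were under 3 normalized counts, as at 19 hpf were the Activin means of 1 GAD2, 1 SLC17A6, 1 DNAH9 and 1 KRT8 gene and the control mean of 1 SYT1 gene. Other identifiers of these 5 symbols were above that floor at 19 hpf, among them GAD2 (BL22766) with an Activin mean of 155 and SYT1 (BL04134) with a control mean of 2508. The part of these cell type and cycle shifts in the values of the chromatin genes was not tested.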

How the data were processed

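Poly(A) RNA of amphioxus ectodermal explants was sequenced in 8 libraries, 2 in each of 4 groups. The genome build is not given in the sources used here. HISAT2, featureCounts and edgeR were used per the submitters' processing notes, which name no version. The columns are those of a DESeq2 results table, per the file headers. The mean column is a signal of normalized counts averaged by the authors over libraries. Fold changes and their errors were deposited as log2 values. The Wald statistic is a score deposited by the authors and equalled the fold change over its error in all 15793 and 16733 rows. The p-value columns were deposited raw and adjusted; recomputing Benjamini-Hochberg values from the raw ones gave the adjusted column in every row.

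Here group means were rebuilt from mean and fold change. Values were shifted for 3 other scalings, with the Wald test and adjustment redone over all genes. Effects at both times were compared by a Wald test over 13528 genes (Python 3.11.15, pandas 2.3.3, scipy 1.17.1). The comparison of times takes the deposited standard errors as given, and whether they are right was not tested. Folds whose lower group was under 3 normalized counts are not given. Members, role groups and lists were chosen with earlier results of these data known. Genes were named by rule: per time the 12 highest and 12 lowest called members above that floor, the member of highest mean per role, those of opposite calls, the 5 smallest p of the difference and a core list; others were added after their values were seen to complete a role. Replicates are pooled explants, and the p-values measure the spread between these libraries as the authors' model estimated it, which may be technical. The reference table of gene names holds another assembly with other identifiers and was not used, and no sequence is shown. One gene that the naming rule picked is not reported here, although the counts include it.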

Additional observations from a re-analysis of the deposited data

Results flagged for a closer look

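The 18 chromatin genes below had an Activin effect that differed between 19 and 11 hpf by the Wald test of the difference, adjusted over 13528 genes, as the log2 effect at 19 hpf minus that at 11 hpf. Histone and DNA methylation genes with a higher effect at 19 hpf were HIST4H4 (BL03134) at 3.63, DNMT1 at 3.01, HIST1H2BL (BL03311) at 2.82 and H3F3A (BL23619) at 1.31. Enzymes, readers and HP1 with a higher effect were SETD8 at 3.54, PHF13 at 2.68, KAT2B at 2.06, CBX3 at 1.93 and HDAC2 at 1.55. The SMARCA5 genes among them lay at 1.96 (BL02952), 1.95 (BL11296), 1.92 (BL15767) and 1.91 (BL07646). A lower effect at 19 hpf was found for H2AFY at -3.75, PHF17 at -3.47, HDAC4 at -2.28, SUZ12 at -1.48 and ARID1B at -1.45. The Wald test gave adjusted p = 1.2e-08 for SETD8 and adjusted p = 0.047 for SUZ12. Of these, 4 of the 13 higher and 4 of the 5 lower differences were called under all 3 scalings.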

How the results depend on the processing

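Alternatives to the deposited scaling, to the threshold and to the set of genes were tried. With ribosomal centring 24 chromatin genes were higher and 18 lower at 11 hpf, and 13 higher and 31 lower at 19 hpf, with medians of 0.23 and -0.12, so that the median at 19 hpf turned; 4 genes had a higher and 18 a lower effect at 19 than at 11 hpf. Upper-quartile scaling gave 45 higher and 6 lower at 11 hpf, 66 and 7 at 19 hpf, and medians of 1.03 and 1.47. Total-count scaling gave 61 and 5 at 11 hpf, 74 and 6 at 19 hpf, medians of 1.57 and 1.79, and 8 genes with a lower effect at 19 hpf. At an adjusted p under 0.01, 7 were lower at 11 hpf, and 5 had a higher and 3 a lower effect at 19 hpf. Genes with a mean of at least 20 had a median of 0.46 at 11 hpf. Without symbols of several identifiers, 6 were lower at each time and 28 higher at 19 hpf, the medians were 0.81 and 0.76, and 6 had a higher effect at 19 hpf. All other counts over all chromatin genes stayed within 1.5 times. Counts within a role moved further. Ribosomal centring at 19 hpf took higher calls from 16 to 3 among SMARC and ARID genes, from 7 to 2 among demethylases, from 5 to 2 among the other methyltransferases and from 4 to 1 among Polycomb genes and among CHD remodelers. Lower calls at 19 hpf went from 3 to 9 among deacetylases and from 0 to 6 among ING and PHF genes. Lower calls of histones at 11 hpf went from 4 to 0 under upper-quartile and total-count scaling, and higher calls of ING and PHF genes from 3 to 8 and 10.

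Values that turned sign, and were called in the deposited or the other scaling, are given for the genes picked by the naming rule. Ribosomal centring turned H3F3A (BL23619) to -0.75, KDM3B to -0.16, KDM5C to -0.019, PHF10 to -0.085, PHF13 to -0.98 and SETD2 to -0.21 at 19 hpf. Total-count scaling turned H2AFV to 0.11 at 11 hpf and 0.021 at 19 hpf, and HDAC2 to 0.79, KDM3B to 0.97, SETD8 to 0.90 and SUV420H1 to 0.16 at 11 hpf. These 12 values were called under one of the scalings and not under the other, and 25 further values of such genes, BRD2, EHMT1 and ARID1B (BL18239) among them, turned sign while called under neither. These shifts follow from the constant each scaling adds; which scaling is right was not tested. No paired analysis was possible because values of single libraries were not used, and for that reason leaving out a replicate was not run. With 2 libraries a group the median standard error of a chromatin gene was 0.47 at 11 hpf and 0.48 at 19 hpf, which limits what could be called.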
